A study of Mus musculus with 12 samples.

Results

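Hepatocytes detoxify ammonia through 2 systems, and 10 genes of these systems are described here in mouse liver. They are Cps1, Otc, Ass1, Asl, Arg1, Nags, Slc25a15, Gls2, Glul and Oat, chosen by symbol from the count table and not by their values. All 10 were found among 55359 rows, 1 row each, and all 10 were among the 15274 genes with enough counts to be tested. RNA was sequenced from the livers of 12 male C57BL/6NTac mice, 4 in each of 3 groups. NM-FGF19 mice were on a high-fat diet (HFD) and were injected with mRNA that encodes NM-FGF19, an engineered FGF19, the gut hormone that restrains bile acid synthesis. HFD control mice had the same diet with a control mRNA, and lean mice had normal chow with a control mRNA. Each group was dosed weekly for 6 weeks with its mRNA in lipid nanoparticles, and tissue was collected 24 hours after dosing ended. The age is given in the labels as 24 weeks, the diet before treatment as 21 weeks and the feeding in all as 28 weeks. The HFD control columns, and no others, carry the name mOX40L, so a different control mRNA and the diet cannot be told apart in HFD control against lean.

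The urea cycle turns ammonia into urea in hepatocytes near the portal vein. Cps1 and Nags supply its entry step in the mitochondrion: NAGS makes N-acetylglutamate, without which CPS1 is inactive, and CPS1 makes carbamoyl phosphate from ammonia. OTC joins carbamoyl phosphate to ornithine, which the carrier ORC1, the product of Slc25a15, exchanges for citrulline across the inner membrane. ASS1, ASL and ARG1 complete the cycle in the cytosol. Gls2 encodes the liver form of glutaminase, which releases ammonia from glutamine on the portal side. Hepatocytes around the central vein express Glul, for glutamine synthetase, which captures the ammonia that escapes the cycle, together with Oat, for ornithine aminotransferase.

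Libraries held 23743415 to 33257260 counted reads, and the 10 genes took 0.602 to 1.3% of them. Levels are in CPM, which scales counts to a common library size, here with TMM factors. Since the lowest count of any of the 10 genes in a library was 1409 (Nags) and the highest 173317 (Cps1), counting error was small beside the differences between mice. On a plot of principal components, the libraries most distant from the rest of their group were HFD control 3 and lean 3. Stellate cell markers summed to 319 to 1002, 461 to 1220 and 202 to 264 CPM in NM-FGF19, HFD control and lean livers, with 0 of 10 markers at 0 in each group. In the same order of groups, endothelial markers summed to 450 to 509, 434 to 522 and 388 to 450 CPM, bile duct markers to 56.4 to 146, 51.6 to 145 and 85.2 to 304 CPM and lymphocyte markers to 21.9 to 37.8, 28.4 to 42.4 and 21.3 to 27.7 CPM. Spp1 alone reached 105, 118 and 251 CPM in these groups, the largest part of the highest bile duct sums. The treatment could be followed by Cyp7a1, for the bile acid synthesis enzyme that FGF19 represses, at 8.59 ± 7.83 CPM in NM-FGF19 livers, 236 ± 128 in HFD control livers and 171 ± 181 in lean livers (mean ± SD, n = 4 each). For Cyp7a1 the adjusted p was 0.0672 for NM-FGF19 against HFD control and 0.0489 for NM-FGF19 against lean.

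Of the 10 genes, 1 fell in HFD control against lean livers and the other 9 did not pass (edgeR quasi-likelihood F test, Benjamini-Hochberg adjustment over 15274 genes, threshold 0.05). The 1 was Nags. Over all genes tested, 8.33% passed in that comparison, 5.04% higher and 3.29% lower, so a count of 1 of 10 is close to the background. In NM-FGF19 against HFD control livers, 0 of 10 passed, where 0.432% of all genes did (0.282% higher and 0.151% lower). In NM-FGF19 against lean livers 0 of 10 passed as well, where 1.49% of all genes did (1.01% higher and 0.484% lower). DESeq2 and limma voom also called 0 of 10 in both. Over all genes, 18 to 289 and 40 to 969 were called in these comparisons across 18 alternatives, and shares by method are not given. At an unadjusted p under 0.05, 2 were lower and 0 higher in NM-FGF19 against HFD control livers, and 3 were lower and 0 higher in NM-FGF19 against lean livers, where 8.95% and 16.7% of all genes were under it. In HFD control against lean livers 2 were lower and 1 higher at that level, where 24.6% of all genes were. Groups did not overlap for 0 of the 10 genes in NM-FGF19 against HFD control livers (5.62% of all genes, 3.23% higher and 2.39% lower) and for 0 in NM-FGF19 against lean livers (10.3%, 5.46% higher and 4.84% lower). The median log2 change of the 10 genes was −0.04, −0.25 and −0.24 in NM-FGF19 against HFD control, HFD control against lean and NM-FGF19 against lean, beside medians of −0.00, −0.02 and −0.01 over all genes tested. The 3 comparisons share groups of mice, so their values are not independent of each other.

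**Figure D1:**
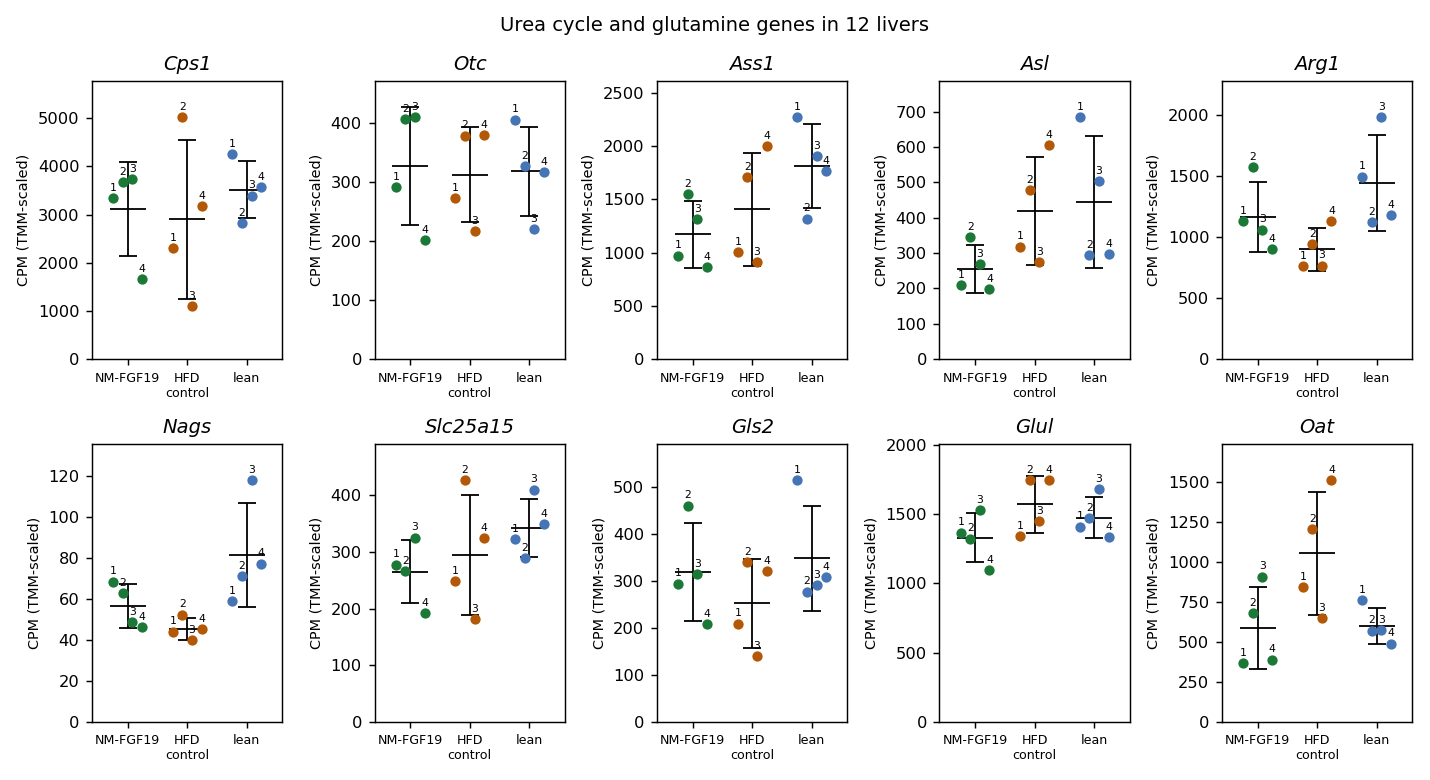
CPM (TMM-scaled, linear axes from 0) of the 10 genes in each of the 12 livers, numbered by replicate, with the mean and SD of each group of 4 as black bars. The 4 HFD control livers lie at 39.9 to 52.4 CPM for Nags, below all 4 lean livers, while for the other 9 genes the HFD control and lean livers overlap.

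Nags was the lowest of the 10 genes. It had 68.5, 62.9, 48.6 and 46.4 CPM in NM-FGF19 livers 1 to 4, 44.0, 52.4, 39.9 and 45.2 CPM in HFD control livers and 59.1, 71.2, 118 and 77.3 CPM in lean livers. All HFD control livers were below all lean livers, and the NM-FGF19 livers lay across both ranges. Of all genes tested, 15.3% had groups that did not overlap in HFD control against lean, 8.39% higher and 6.89% lower, and of the 10 genes only Nags did. Nags fell in HFD control livers with a log2 change of −0.84 ± 0.20 (SE, 95% interval −1.27 to −0.41, adjusted p = 0.0226), or to 0.557 times the lean level. The call was lost without any 1 of lean 3 (log2 change −0.59, adjusted p = 0.0521), lean 4 (0.0535), HFD control 1 (0.0672), HFD control 3 (0.0659) or HFD control 4 (0.0519). With lean 3 and HFD control 3 left out together, the change was −0.53 and did not pass (adjusted p = 0.113). Lean 3 held the highest Nags level of all 12 livers. In NM-FGF19 against HFD control livers the change was 0.32 ± 0.20 (adjusted p = 0.704), and in NM-FGF19 against lean livers −0.52 ± 0.20 (adjusted p = 0.198). In bulk liver RNA, fewer hepatocytes and less RNA per hepatocyte cannot be told apart. Alb had a log2 change of −0.71 in HFD control against lean livers (adjusted p = 0.0842), and the sum of 11 hepatocyte markers was 64155 to 85791 CPM in HFD control livers against 99357 to 152940 CPM in lean livers. The part of this shift in the Nags result was not tested.

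The exons of Nags overlap those of Gm11586, on the opposite strand, over 443 bases in GENCODE M21 on GRCm38. Gm11586 had 11 to 24 counts in NM-FGF19 libraries, 7 to 14 in HFD control libraries and 5 to 19 in lean libraries, against at least 1409 for Nags. Which strand mode the counting used is not stated, so reads of this shared stretch cannot be assigned to a strand. The upstream windows of Nags, which carries the call, and of Oat and Glul, the central side pair, are shown so that a portal and the central genes can be read side by side. They are the 250 bases before the RefSeq start, read 5′ to 3′ on the gene's strand, GRCm38.p6, with capitals on any match to the motifs listed after them. Nags lies at chr11:102145263-102145512 on the plus strand, Oat at chr7:132576399-132576648 on the minus strand and Glul at chr1:153899679-153899928 on the plus strand.
Nags: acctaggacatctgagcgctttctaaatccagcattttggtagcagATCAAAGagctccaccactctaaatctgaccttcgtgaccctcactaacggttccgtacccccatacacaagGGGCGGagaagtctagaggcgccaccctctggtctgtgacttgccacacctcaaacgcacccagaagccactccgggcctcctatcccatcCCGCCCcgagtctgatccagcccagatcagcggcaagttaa
Oat: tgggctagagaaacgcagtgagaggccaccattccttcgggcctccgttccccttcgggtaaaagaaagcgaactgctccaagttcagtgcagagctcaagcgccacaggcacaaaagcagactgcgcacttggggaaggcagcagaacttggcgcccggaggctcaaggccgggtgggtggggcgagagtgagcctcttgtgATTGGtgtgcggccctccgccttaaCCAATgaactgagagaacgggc
Glul: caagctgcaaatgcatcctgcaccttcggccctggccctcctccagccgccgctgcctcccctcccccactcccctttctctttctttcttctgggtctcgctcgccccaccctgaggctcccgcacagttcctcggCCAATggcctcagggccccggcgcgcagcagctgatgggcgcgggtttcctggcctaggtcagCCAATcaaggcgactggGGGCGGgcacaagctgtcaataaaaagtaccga

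The motifs were searched on both strands with overlaps allowed, and each share is of 32851 windows of the same length. They were the TATA box TATAAA (12.4% of windows), the C/EBP form TTGCNNAA (9.56%), the cAMP response element TGACGTCA (1.55%), the HNF4 form CAAAGTCCA (0.384%), the TCF/LEF core CTTTGAT (3.21%), the GC box GGGCGG (32.7%) and the CCAAT box CCAAT (33.8%). The Nags window held 1 TCF/LEF core, at position −204 from the start, and 2 GC boxes. The Oat window held 2 CCAAT boxes, and the Glul window held 2 CCAAT boxes and 1 GC box. Windows were found for 6 of the 10 genes, by symbol. The other portal side genes with windows were Otc and Ass1 (1 window each) and Slc25a15 (2 windows). Each of them held 0 TCF/LEF cores, and they held 0, 1 and 7 GC boxes in that order. Binding at any of these matches was not tested.

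Cps1, for the enzyme at the entry of the cycle, held the largest deviations from a group mean among the 10 genes, in HFD control livers. It had 3349, 3681, 3740 and 1663 CPM in NM-FGF19 livers 1 to 4, 2297, 5020, 1106 and 3180 CPM in HFD control livers and 4258, 2827, 3394 and 3577 CPM in lean livers. HFD control 2 and HFD control 3 held the highest and the lowest Cps1 level of the 12, so the HFD control group spanned both other groups. Its log2 change was 0.10 in NM-FGF19 against HFD control livers (95% interval −0.71 to 0.91, adjusted p = 0.978) and −0.28 in HFD control against lean livers (95% interval −1.09 to 0.54, adjusted p = 0.707). These intervals leave room for a change of up to 1.88-fold higher or to 0.610 times in NM-FGF19 against HFD control livers.

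Otc, for the mitochondrial enzyme that forms citrulline, averaged 327 ± 100 CPM in NM-FGF19 livers, 312 ± 80.5 in HFD control livers and 318 ± 75.8 in lean livers. Its log2 changes were 0.07, −0.03 and 0.04 in NM-FGF19 against HFD control, HFD control against lean and NM-FGF19 against lean, each with an SE of 0.26. Slc25a15, for the ornithine and citrulline carrier, averaged 266 ± 55.1 CPM in NM-FGF19 livers, 295 ± 106 in HFD control livers and 343 ± 51.3 in lean livers. The groups overlapped in every comparison, and the lowest adjusted p of Slc25a15 was 0.475, for NM-FGF19 against lean livers.

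None of the 3 cytosolic enzymes passed in any comparison by the edgeR test. Arg1, for the arginase that releases urea, had 1134, 1574, 1061 and 901 CPM in NM-FGF19 livers 1 to 4, 761, 941, 766 and 1129 CPM in HFD control livers and 1496, 1119, 1982 and 1179 CPM in lean livers. HFD control livers 1 to 3 were below all lean livers, and HFD control 4 was just above the lowest lean liver. The log2 change of Arg1 in HFD control against lean livers was −0.68 ± 0.23 (95% interval −1.17 to −0.19), which did not pass (adjusted p = 0.0808, and 0.0288 with DESeq2, in a range of 0.0288 to 0.363 over 18 alternatives). In NM-FGF19 against HFD control livers it was 0.38 ± 0.23 (adjusted p = 0.699). Macrophages can also express Arg1. Macrophage markers summed to 239 to 517 CPM in NM-FGF19 livers, 307 to 815 in HFD control livers and 520 to 691 in lean livers, with 0 of 12 markers at 0 in each group. The sum joins markers that moved apart: in HFD control against lean livers 4 of the 12 rose (Cd68, Cx3cr1, Trem2 and Gpnmb) and 4 fell (Clec4f, Timd4, Marco and Vsig4), all named after their values were seen. Gpnmb averaged 42.7 ± 31.8 CPM in HFD control livers against 0.297 ± 0.223 CPM in lean livers, and Clec4f, a marker of resident Kupffer cells, 27.9 ± 14.4 CPM in HFD control livers against 166 ± 19.0 CPM in lean livers. The part of macrophages in the Arg1 values was not tested.

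Asl, for argininosuccinate lyase, was at 210, 346, 268 and 198 CPM in NM-FGF19 livers 1 to 4, 318, 479, 273 and 605 CPM in HFD control livers and 684, 293, 504 and 298 CPM in lean livers. NM-FGF19 2 was the only NM-FGF19 liver above the lowest HFD control liver. The log2 change was −0.71 ± 0.32 in NM-FGF19 against HFD control livers (unadjusted p = 0.0433 and adjusted p = 0.542 by edgeR) and −0.80 ± 0.32 in NM-FGF19 against lean livers (adjusted p = 0.224). Ass1, for argininosuccinate synthetase, averaged 1175 ± 315 CPM in NM-FGF19 livers, 1407 ± 533 in HFD control livers and 1816 ± 394 in lean livers. Its log2 change in NM-FGF19 against lean livers was −0.63 ± 0.28 (adjusted p = 0.276), and in NM-FGF19 against HFD control livers −0.26 ± 0.28 (adjusted p = 0.870). In HFD control against lean livers the log2 changes were −0.09 ± 0.32 for Asl and −0.37 ± 0.28 for Ass1.

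Gls2, the portal glutaminase gene, averaged 319 ± 105 CPM in NM-FGF19 livers, 252 ± 94.7 in HFD control livers and 348 ± 112 in lean livers. The lowest liver was HFD control 3 at 140 CPM and the highest was lean 1 at 514 CPM. The log2 change was 0.34 ± 0.31 in NM-FGF19 against HFD control livers (adjusted p = 0.832) and −0.46 ± 0.31 in HFD control against lean livers (adjusted p = 0.394). The exons of Gls2 overlap the opposite-strand gene Spryd4 over 97 bases. Spryd4 had 644 to 1131 counts per library, against at least 5251 for Gls2, and reads of the shared stretch cannot be assigned to a strand.

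Glul, the central vein gene that defines the glutamine synthetase zone, stayed within 0.27 of its group means on the log2 scale in all 12 livers. It had 1366, 1323, 1528 and 1098 CPM in NM-FGF19 livers 1 to 4, 1340, 1747, 1451 and 1744 CPM in HFD control livers and 1410, 1473, 1679 and 1335 CPM in lean livers. The 3 groups overlapped throughout. Its log2 change was −0.24 ± 0.16 in NM-FGF19 against HFD control livers (95% interval −0.58 to 0.10, adjusted p = 0.718) and 0.09 ± 0.16 in HFD control against lean livers (95% interval −0.24 to 0.43, adjusted p = 0.766). Glul shares exon sequence with the opposite-strand gene Teddm2 over 116 bases and with the microRNA gene Mir8114 over 93, and these had 28 to 79 and 0 counts per library.

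Oat, the other central side gene, was at 369, 679, 908 and 388 CPM in NM-FGF19 livers 1 to 4, 844, 1205, 647 and 1512 CPM in HFD control livers and 760, 570, 575 and 489 CPM in lean livers. HFD control livers 1, 2 and 4 were above all lean livers, and HFD control 3 lay within the lean range. The log2 change was 0.81 ± 0.32 in HFD control against lean livers (95% interval 0.13 to 1.5, adjusted p = 0.131) and −0.84 ± 0.32 in NM-FGF19 against HFD control livers (95% interval −1.53 to −0.16, adjusted p = 0.425). In NM-FGF19 against lean livers it was −0.03 ± 0.31 (adjusted p = 0.98). Oat thus did not pass in any comparison by the edgeR test, and with library totals in place of TMM it passed in HFD control against lean livers (log2 change 1.10, adjusted p = 0.0248), a scaling that moved the median of all genes to 0.29. Relative to that median the change was 0.81.

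**Figure D2:**
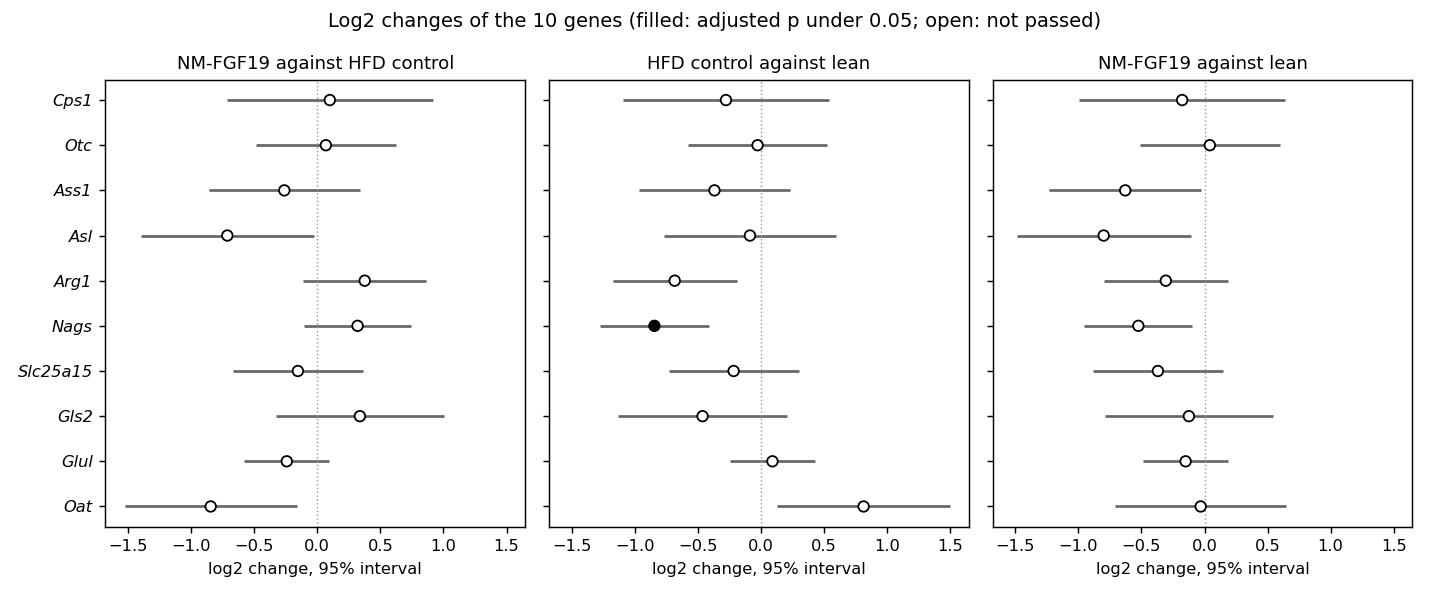
Log2 changes of the 10 genes (horizontal axis) with 95% intervals from edgeR's quasi-likelihood fit, 1 panel per comparison, with filled points for an adjusted p under 0.05. The only filled point is Nags in HFD control against lean livers at −0.84, and the widest intervals belong to Cps1, at −0.71 to 0.91 in NM-FGF19 against HFD control livers.

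The ratio of counts of 2 genes in 1 library does not depend on library scaling. The log2 ratio of Cps1 to Glul, a portal against a central gene, was 1.29, 1.48, 1.29 and 0.60 in NM-FGF19 livers 1 to 4, 0.78, 1.52, −0.39 and 0.87 in HFD control livers and 1.6, 0.94, 1.02 and 1.42 in lean livers. HFD control 3 was the only liver with fewer Cps1 than Glul counts, and HFD control 2 lay among the highest. The log2 ratio of Gls2 to Glul was −2.22, −1.52, −2.28 and −2.40 in NM-FGF19 livers, −2.68, −2.36, −3.37 and −2.45 in HFD control livers and −1.45, −2.41, −2.53 and −2.11 in lean livers. The groups overlapped in both ratios. They are given as descriptions with no test, since they combine genes of the same list.

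The 10 genes tended to be high or low together in the same liver. NM-FGF19 4 had the lowest level of its group for 9 of 10 genes, HFD control 3 for 8 of 10 and lean 2 for 6 of 10. Of the 45 pairs of genes, 43 had a positive correlation of their deviations from group means over the 12 libraries, with Pearson's r of 0.92 for Cps1 with Slc25a15, 0.91 for Ass1 with Asl and 0.88 for Cps1 with Gls2. The other 2 pairs both held Nags, at −0.15 with Otc and −0.08 with Oat. Genes of 1 library share its depth and scaling, so these values describe the libraries and carry no p. How often these livers were lowest, or pairs correlated positively, over all genes tested was not computed. The pattern is thus not shown to be particular to the 10 genes. NM-FGF19 4 and HFD control 3 also had the highest stellate marker sums of their groups, at 1002 and 1220 CPM, and the highest bile duct marker sums, at 146 and 145 CPM. Most of these bile duct sums was Spp1, which reached 105 and 118 CPM in the 2 groups. Krt19, Krt7 and Epcam stayed at or below 3.49 CPM in both groups. The hepatocyte marker sums of NM-FGF19 4 and HFD control 3 were not the lowest: NM-FGF19 4 had 144092 CPM in a group range of 107275 to 153091, and HFD control 3 had 79458 CPM in a group range of 64155 to 85791. The part of any of these cells in the low values was not tested. The SD of log2 CPM of Cps1 was 0.56 in NM-FGF19, 0.92 in HFD control and 0.24 in lean livers, above 94.9, 98.4 and 55.6% of 8093 genes (those averaging 10 CPM or more). For Glul it was 0.20, 0.19 and 0.14, above 53.5, 46.1 and 24.0% of them.

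**Figure D3:**
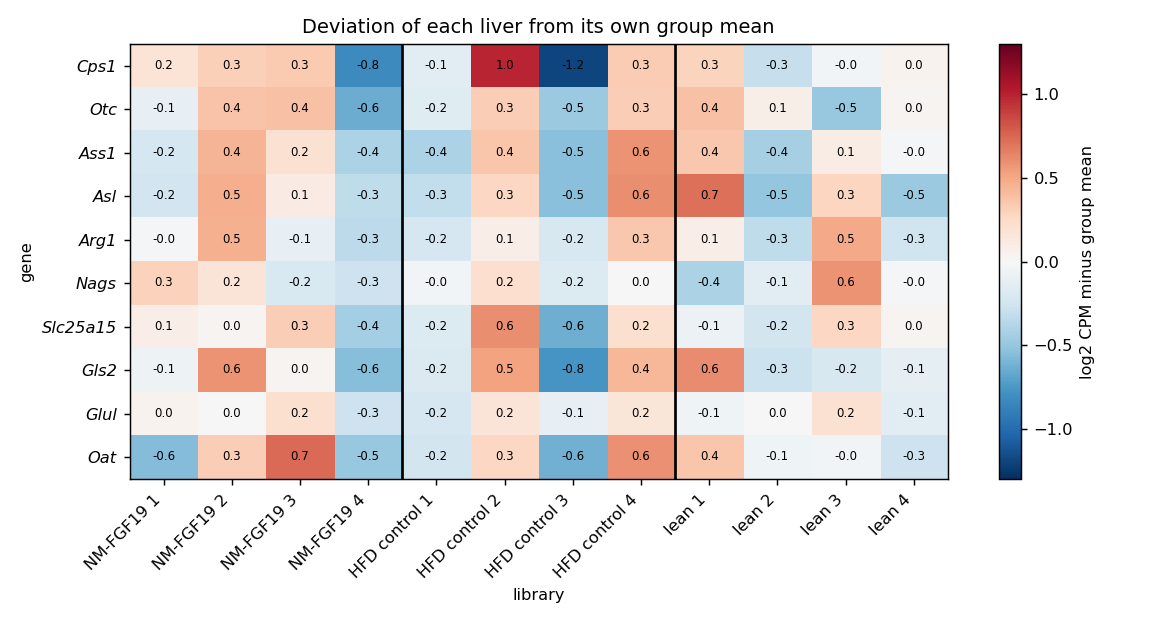
Log2 CPM of the 10 genes (rows) in the 12 livers (columns) minus the mean of the liver's own group, printed in each cell and coloured from blue (below) to red (above). NM-FGF19 4 and HFD control 3 are below their group mean in all rows, and the Cps1 row holds the extremes while the Glul row stays near 0.

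Per kilobase of exon (union of GENCODE M21 exons), the levels in lean livers ran from Ass1 at 752 ± 163, Arg1 at 648 ± 177 and Cps1 at 633 ± 106 through Glul at 444 ± 44.5 and Oat at 254 ± 48.6 CPM per kb. Below these came Gls2 at 100.1 ± 32.2, Asl at 92.0 ± 38.8, Otc at 74.9 ± 17.9, Slc25a15 at 60.9 ± 9.11 and Nags at 28.7 ± 9.02 (mean ± SD, n = 4). The union counts every annotated exon, 4831 bases for Asl and 4241 for Otc, so the order of genes depends on the annotation. The SDs overlapped among Ass1, Arg1 and Cps1, and between neighbours in order from Gls2 to Slc25a15, while Nags lay apart below Slc25a15. In HFD control livers Oat reached 446 ± 163 CPM per kb beside Glul at 473 ± 62.3, and in NM-FGF19 livers they stood at 248 ± 109 and 400 ± 53.5.

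Genes around the 10 were followed with 4 lists. On the list of 32 enzymes and carriers that supply or drain the cycle, 29 were tested. In HFD control against lean livers 1 fell, 0 rose and 28 did not pass, beside 3.29% lower and 5.04% higher over all genes tested. That gene was Asns, for asparagine synthetase, which uses glutamine as its nitrogen donor, at 4.90 ± 5.02 CPM in HFD control livers against 40.8 ± 12.4 CPM in lean livers (log2 change −3.06 ± 0.73, adjusted p = 0.0278). In both comparisons with NM-FGF19 livers 0 of 29 passed by edgeR, with 1 higher and 1 lower at an unadjusted p under 0.05 against HFD control (8.95% of all genes) and 1 higher and 4 lower against lean (16.7% of all genes). The list's median log2 change was −0.03, 0.09 and −0.05 in NM-FGF19 against HFD control, HFD control against lean and NM-FGF19 against lean. Glud1, for glutamate dehydrogenase, averaged 1020 ± 61.0 CPM in NM-FGF19 livers, 1110 ± 76.5 in HFD control livers and 1099 ± 132 in lean livers. Slc25a13, for the aspartate carrier citrin, and Car5a, for the mitochondrial carbonic anhydrase that supplies bicarbonate, had log2 changes of 0.05 and 0.15 in NM-FGF19 against HFD control livers and 0.16 and 0.28 in HFD control against lean livers, none past the threshold. Slc38a3, for a glutamine transporter of hepatocytes, averaged 1884 ± 671 CPM in NM-FGF19 livers, 1304 ± 284 in HFD control livers and 1953 ± 355 in lean livers (adjusted p = 0.551 for NM-FGF19 against HFD control and 0.155 for HFD control against lean). Arg2, for the mitochondrial arginase, was at 0.10 to 0.615 CPM in the group means.

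On the list of other portal side genes, 3 of 22 fell in HFD control against lean livers, 1 rose and 18 did not pass, beside 3.29% lower and 5.04% higher over all genes tested. Cyp2f2, a cytochrome P450 gene used as a portal side marker, averaged 444 ± 132 CPM in HFD control livers against 1226 ± 225 CPM in lean livers (log2 change −1.47 ± 0.32, adjusted p = 0.0181). In NM-FGF19 livers Cyp2f2 averaged 499 ± 226 CPM, with a log2 change of 0.17 ± 0.32 against HFD control livers (adjusted p = 0.944). Sox9, which also marks bile ducts, changed by −1.69 ± 0.47 (adjusted p = 0.0477) and Hsd17b6, for a steroid dehydrogenase, by 2.38 ± 0.45 (adjusted p = 0.0124) in HFD control against lean livers. The third that fell was Cdh1, for E-cadherin, at −1.43 ± 0.40 (adjusted p = 0.0493), named after its value was seen. Hal, for histidine ammonia-lyase, Sds, for serine dehydratase, and Pck1, for the gluconeogenic enzyme PEPCK, did not pass in any comparison (adjusted p of 0.317, 0.369 and 0.555 in HFD control against lean livers). The list's median log2 change was 0.05 in NM-FGF19 against HFD control, −0.41 in HFD control against lean and −0.19 in NM-FGF19 against lean livers.

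On the list of other central side genes, 1 of 25 rose in HFD control against lean livers and 0 fell, a share close to the 5.04% higher over all genes tested. It was Lhpp, for a phosphatase that acts on phosphohistidine, at 92.4 ± 23.6 CPM in HFD control livers against 59.2 ± 8.23 CPM in lean livers (log2 change 0.64 ± 0.18, adjusted p = 0.0430). In NM-FGF19 against lean livers 1 of 25 fell, the Cyp7a1 already given, where 0.484% of all genes were lower. That list's median was −0.09, 0.11 and 0.01 in NM-FGF19 against HFD control, HFD control against lean and NM-FGF19 against lean livers. The Wnt targets Axin2, Lgr5 and Tbx3, which mark signalling around the central vein, had log2 changes of −0.18 ± 0.17, −0.10 ± 0.48 and −0.28 ± 0.32 in NM-FGF19 against HFD control livers and 0.11 ± 0.17, 0.52 ± 0.49 and −0.28 ± 0.32 in HFD control against lean livers. Cyp2e1 and Cyp1a2, cytochrome P450 genes of the central zone, had log2 changes of 0.37 ± 0.28 and −0.19 ± 0.35 in HFD control against lean livers. Slc1a2, for a glutamate importer, and Rhbg, for an ammonia channel, both known from the Glul zone, had log2 changes of 0.42 ± 0.31 and −0.47 ± 0.40 in the same comparison. None of these 7 genes passed in any comparison. Of 25 transcriptional regulators and Wnt pathway genes tested, 0 passed by edgeR in each comparison, with 0, 6 and 1 at an unadjusted p under 0.05 in NM-FGF19 against HFD control, HFD control against lean and NM-FGF19 against lean. Over all genes tested 8.95, 24.6 and 16.7% were under it in these comparisons, so the 6 of 25 is near the background and the 0 and 1 lie below it.

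Over the 4 lists together, 6 genes were called in HFD control against lean livers, where 8.33% of all genes tested were. In NM-FGF19 against HFD control livers 0 were called (0.432% of all genes), and in NM-FGF19 against lean livers 1 (1.49%). The lists held 29, 22, 25 and 25 tested genes, some of them shared between lists. In the same order of comparisons DESeq2 called 12, 3 and 8 list genes and limma voom 4, 1 and 1. The shares of all genes called by these 2 methods are not given here. Leaving out lean 2 or HFD control 1 reduced the 6 to 2, leaving out lean 3 or lean 4 reduced them to 3, and leaving out HFD control 3 reduced them to 1. With lean 3 and HFD control 3 both removed the count was 0, and with HFD control 4 removed it was 4. The 1 became 0 without any 1 of lean 1, lean 2, lean 3, NM-FGF19 1 or NM-FGF19 4.

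**Figure D4:**
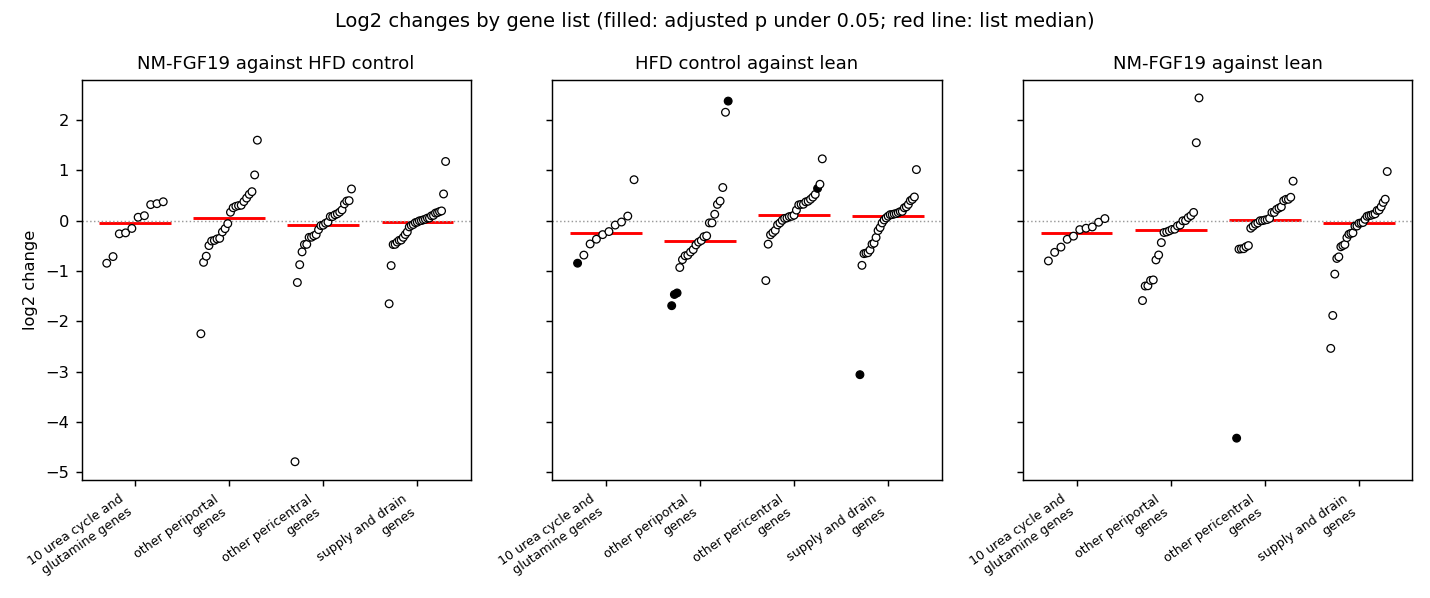
Log2 change (vertical axis) of each tested gene on 4 lists, 1 panel per comparison, with genes in order of change within a list, filled points for an adjusted p under 0.05 and a red line at the list's median. Drawn are the 10 genes, other portal side genes, other central side genes and the genes that supply or drain the cycle. The list of regulators is not drawn. In HFD control against lean livers the medians are −0.25 for the 10 genes, −0.41 for other portal side genes and 0.11 for other central side genes.

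Among 7906 other genes that averaged 10 CPM or more, those whose log2 CPM was most like that of Cps1 over the 12 libraries were Cdc37l1, Zhx1 and Gpld1 (Pearson's r of 0.95, 0.94 and 0.94), and without the 2 libraries farthest from the Cps1 median these were 0.73, 0.77 and 0.86. For Gls2 they were Slc29a1, Pigr and Tomm70a (0.94, 0.94 and 0.93), for Oat Etnppl, Adhfe1 and Sult1d1 (0.90, 0.89 and 0.89) and for Glul Ylpm1, Car14 and Ccni (0.83, 0.83 and 0.81). Spearman's rho ran from 0.66 for Cdc37l1 with Cps1 to 0.97 for Slc29a1 with Gls2. These genes were picked as the highest of many, so the values describe likeness in these libraries and carry no p.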

How the data were processed

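Each liver library started from 100 ng RNA (stranded Illumina mRNA kit) and was read as pairs of 101 nt, per the labels. The deposited table holds raw counts per gene, and the submitters' processing notes name Trimmomatic, STAR, featureCounts and mm39. Versions, annotation and strand mode were not given in the sources used here. All 12 columns were matched to samples by label, with 0 left over. Symbols matched 52083 of 55359 IDs, and the other 3276 held 0.515% of counts. Genes passing filterByExpr (minimum count 10) entered the quasi-likelihood F test of edgeR 4.0.16 (R 4.3.3, robust, TMM), with all 12 samples in 1 fit by group and Benjamini-Hochberg adjustment at 0.05. The SE is the one implied by F. Log2 CPM used a prior count of 2. The scripts were tested on simulated data. The labels do not say whether mice shared a cage or litter. Each p-value sets a group difference against the spread between these mice, whose estimate also draws on the other genes tested. Replicates differed by far more than counting error, with a lowest chi-square per degree of freedom of 38.5. The members, gene lists, motifs, alternatives and naming rule (all members, fixed neighbours, the called list genes with the smallest adjusted p, and the 3 genes most like each of Cps1, Gls2, Glul and Oat) were chosen with earlier results of these data known. Marker genes listed for lymphocytes, endothelial cells and bile ducts were also summed. One of the fixed neighbours is not reported here. The genome at hand is GRCm38, so no coordinates on the build of the counts are given.

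Alternatives were DESeq2 1.42.0, limma 3.58.1 voom, RLE size factors, library totals alone, no filter, a filter of 1 CPM in at least 4 samples, no robust option, a fit of only the groups in question, a block for replicate number, leaving out each library, and leaving out lean 3 with HFD control 3.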

Additional observations from a re-analysis of the deposited data

Results flagged for a closer look

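In 30 groups of 4 livers (10 genes in 3 groups), 1 liver stood apart from the other 3 of its group. NM-FGF19 4 had 1663 CPM of Cps1, and the gap to the next liver was 0.864 of the group's range on the log2 scale, above the critical value of Dixon's test for 4 samples at the 95% level. Chance flags about 1 in 20 groups. Without NM-FGF19 4, the log2 change of Cps1 in NM-FGF19 against lean livers was 0.03, and no member passed in a comparison with NM-FGF19 livers.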

How the results depend on the processing

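Over 18 alternatives per comparison, 0 of the 10 genes were called in NM-FGF19 against HFD control and in NM-FGF19 against lean livers in each. In HFD control against lean livers the count of 1 became 2 with DESeq2 (Arg1 and Nags), 0 with the replicate block and 0 without lean 3 and HFD control 3, and 0 to 1 with 1 library left out. Over all genes, calls in that comparison ranged over 480 to 2611 in the 18 alternatives. The share called by each alternative is not given, so these counts are not read against a background. Nags kept its direction throughout and its call in 10 of 18. Its adjusted p was 0.0634 with the replicate block and 0.0526 with library totals alone (log2 change −0.50, or −0.79 relative to the median of all genes). The medians of all genes under library totals alone were −0.13, 0.29 and 0.17 in NM-FGF19 against HFD control, HFD control against lean and NM-FGF19 against lean.

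Genes that had not been called changed sign under library totals alone: in NM-FGF19 against HFD control Cps1 to −0.0128 and Otc to −0.0598, in HFD control against lean Cps1 to 0.0032, Otc to 0.25, Asl to 0.20 and Slc25a15 to 0.0914, and in NM-FGF19 against lean Gls2 to 0.0289, Glul to 0.0393 and Oat to 0.13. Without lean 3 and HFD control 3 the changes were −0.18 for Cps1 and −0.0779 for Otc in NM-FGF19 against HFD control, 0.0036 for Cps1, 0.16 for Asl and 0.0819 for Slc25a15 in HFD control against lean, and −0.0801 for Otc in NM-FGF19 against lean. With 1 CPM in 4 samples Otc was at 0.00076 in HFD control against lean. With 1 library left out, ranges that crossed 0 were −0.17 to 0.50 (Cps1), −0.0714 to 0.24 (Otc) and −0.33 to 0.0790 (Slc25a15) in NM-FGF19 against HFD control, −0.32 to 0.21 (Asl) and −0.14 to 0.13 (Otc) in HFD control against lean, and −0.27 to 0.0315 (Cps1), −0.0810 to 0.22 (Otc), −0.34 to 0.13 (Gls2) and −0.31 to 0.14 (Oat) in NM-FGF19 against lean.

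On the 4 lists of neighbouring genes, 6 calls in HFD control against lean became 12 with DESeq2, 11 with library totals alone, 3 with no filter, 3 with the replicate block, 2 with only the groups compared, 0 without lean 3 and HFD control 3, and 1 to 8 with 1 library left out. In NM-FGF19 against HFD control 0 became 3 with DESeq2, 1 with voom, 1 with the 1 CPM filter, 1 with no robust option and 0 to 1 with 1 library left out. In NM-FGF19 against lean 1 became 8 with DESeq2, 2 with library totals alone, 0 with the replicate block, 0 without lean 3 and HFD control 3 and 0 to 1 with 1 library left out. Over all genes the 66, 1272 and 228 calls of the 3 comparisons ranged over 18 to 289, 480 to 2611 and 40 to 969. The cause of these shifts was not tested. Of 12 same-numbered pairs, 0 had a correlation of deviations over 0.1 (−0.36 to 0.07), while differently numbered pairs ran from −0.46 to 0.54. A shared effect smaller than the spread between mice would not show in these correlations, so pairing by number is not excluded.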
